A study of Mus musculus with 6 samples.

Results

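The genes described here are 10 genes of innate pattern recognition, Tlr1, Tlr2, Tlr3, Tlr4, Tlr6, Cd14, Ly96, Myd88, Nod1 and Irak2. They were chosen by name, as every probe set that the platform table gives to one of these genes alone, which took 14 probe sets of 10 genes among the 18194 genes with a probe set of their own. Of the 10, 5 are Toll-like receptors, Cd14 and Ly96 are co-receptors of Tlr4, Myd88 is an adaptor, Irak2 is a kinase and Nod1 is a cytosolic sensor outside the Toll-like family. RNA was measured on 6 Affymetrix mouse arrays of endothelial cells sorted from lymph nodes (LN) of untreated C57BL/6 mice aged 6 weeks, in which LN of several sites were pooled. The cells were depleted of CD45+ cells on magnetic beads and sorted as CD45neg, live cells by gp38 (podoplanin) and CD31. Compared were 3 arrays labelled BEC and DP, called double positive here, and 3 arrays labelled LEC and CD31+, called CD31+ here.

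Each label pairs a cell type with a gate, and the 2 contradict each other under the gates that the study states, in which lymphatic endothelial cells (LEC) are gp38+ CD31+ and blood endothelial cells (BEC) are gp38neg CD31+. The arrays were therefore grouped and named by the gate. Pdpn, which encodes gp38, stood at 8.32, 7.33 and 7.28 on the double positive arrays and at 3.69, 3.75 and 3.29 on the CD31+ arrays. Lyve1, a hyaluronan receptor of lymphatic endothelium, was higher in double positive by 5.32 (adjusted p = 0.0111, limma), and Flt1, a VEGF receptor of blood endothelium, was lower by 4.52 (a difference of -4.52, adjusted p = 0.0111). Of the lymphatic marker genes, 6 of 9 were called higher and none lower in double positive. Of the blood endothelial marker genes, 4 of 9 were called lower and none higher. Over all genes 1.06% were called higher and 0.225% lower. Pecam1, which encodes CD31 itself, lay near the lowest value of the arrays in both groups, at a mean of 2.41 in double positive and 2.48 in CD31+, so it bears on neither gate.

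Toll-like receptors are membrane proteins that bind molecules typical of microbes and of damaged cells. Tlr2 pairs with Tlr1 or Tlr6 at the cell surface to bind lipoproteins, Tlr4 binds lipopolysaccharide together with Ly96 (also called MD-2) after Cd14 has handed it over, and Tlr3 binds double-stranded RNA inside endosomes. Myd88 couples all of these receptors except Tlr3 to kinases of the Irak family and from there to NF-kB, whereas Tlr3 signals through Ticam1 (TRIF). In LN the endothelium is exposed to lymph and blood and can meet such ligands there.

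Values are log2 RNA abundances, one for each probe set and array, and differences are double positive minus CD31+. In the double positive arrays the co-receptor Cd14 and the receptors Tlr4 and Tlr3 stood higher, by 1.89, 1.33 and 1.16 on the log2 scale, with no overlap between the groups (3 arrays each). Every double positive array likewise lay above every CD31+ array for 16.9% of all genes. None of Cd14, Tlr4 and Tlr3 passed a false discovery rate (FDR) of 5% over all 45037 probe sets. Tlr3 passed it where only probe sets that reached 5 on at least 3 arrays were tested, a setting that called 36.0% of genes higher. With the array medians of probe sets whose mean reached 5 made equal, the Tlr3 difference was 0.48 and was not called in that setting (adjusted p = 0.28, limma). Tlr2 was above CD31+ on every double positive array by a smaller margin that passed no test. Ly96, Nod1 and Tlr6 overlapped between the groups, and Tlr1, Irak2 and Myd88 gave readings with almost no spread over the 6 arrays.

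**Figure D1:**
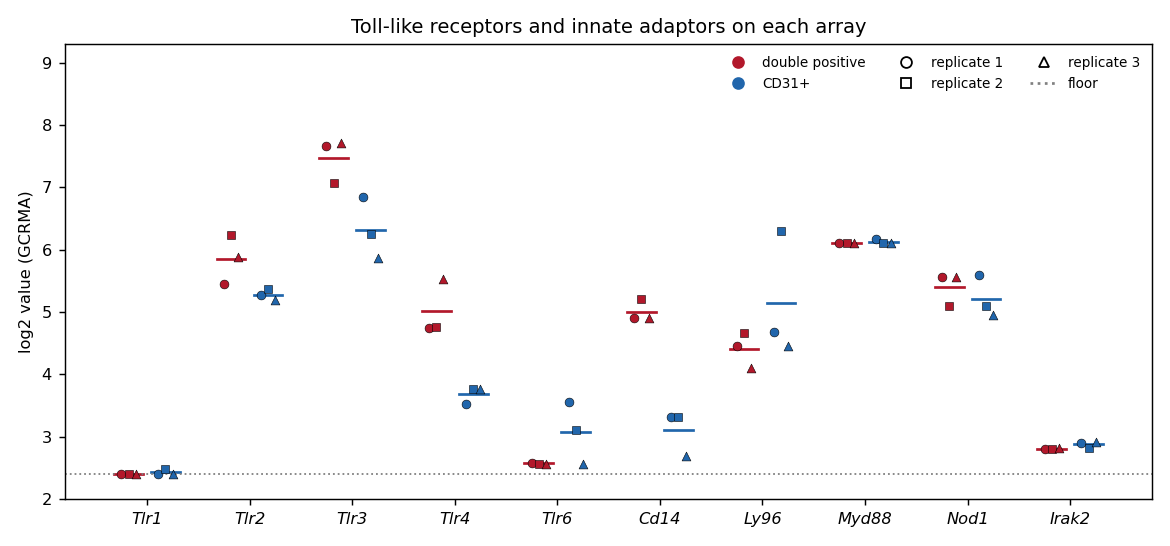
Log2 value (y axis) of the brightest probe set of each of the 10 genes on each array, double positive left of CD31+, with a bar at each group mean, a symbol for each replicate number and a dotted line at the common floor of 2.39. Cd14, Tlr4, Tlr3 and Tlr2 have all 3 double positive arrays above all 3 CD31+ arrays, as do 16.9% of all genes. The 3 double positive points of Myd88 lie on one value.

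Cd14 is a lipid-anchored or soluble protein that takes up lipopolysaccharide and passes it to the Tlr4 complex. Its one probe set, 1417268_at, read 4.90, 5.20 and 4.91 on the double positive arrays and 3.31, 3.32 and 2.70 on the CD31+ arrays. The gap between the groups was wider than the spread within either. The means were 5.003 ± 0.174 in double positive and 3.11 ± 0.358 in CD31+ (SD, n = 3 each). The difference was 1.89 (SE 0.220, 95% interval 1.30 to 2.49), with an adjusted p of 0.0678 over all probe sets in limma. With any single array left out the difference lay between 1.69 and 2.00. The CD31+ readings lay within 1 log2 unit of the floor, so no ratio is given.

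Tlr4 has 4 probe sets. The brightest, 1418162_at, read 4.74, 4.76 and 5.52 on the double positive arrays and 3.52, 3.76 and 3.76 on the CD31+ arrays. Double positive replicate 3 was the highest of the 6, and the groups did not overlap. CD31+ replicates 2 and 3 held the same value to 4 decimals, so the CD31+ SD rests in part on a repeated reading. The means were 5.01 ± 0.447 in double positive and 3.68 ± 0.135 in CD31+ (SD, n = 3 each), a difference of 1.33 (SE 0.258, 95% interval 0.63 to 2.02) with an adjusted p of 0.179, and no ratio is given because the CD31+ readings were dim. The second probe set, 1418163_at, read 2.97, 3.75 and 4.05 on the double positive arrays and 3.07, 2.80 and 2.74 on the CD31+ arrays. It had the same sign, with a difference of 0.72 (adjusted p = 0.659), but overlapped, since double positive replicate 1 fell below CD31+ replicate 1. The probe sets 1430695_at and 1442827_at read between 2.39 and 2.60 on every array, at or near the floor, and carry no information on Tlr4 here.

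Ly96 is the protein that sits on the outer part of Tlr4 and holds the lipid of lipopolysaccharide. Its probe set, 1449874_at, read 4.45, 4.66 and 4.10 on the double positive arrays and 4.68, 6.30 and 4.45 on the CD31+ arrays. CD31+ replicate 2 stood apart, and without it the other arrays spanned 4.10 to 4.68. Double positive replicate 1 and CD31+ replicate 3 held the same value to 4 decimals. The difference was -0.74 (SE 0.581, 95% interval -2.30 to 0.82, adjusted p = 0.659) with all arrays and -0.16 without CD31+ replicate 2. Leaving out both arrays numbered 2 gave -0.29. A control probe set for the murine B1 repeat was bright on the arrays numbered 2, at 12.8 in double positive and 12.3 in CD31+, against 7.47 to 8.11 on the other 4 arrays, and its part in the Ly96 reading was not tested. Ly96 thus did not follow the other 2 genes of the lipopolysaccharide receptor, Cd14 and Tlr4, in sign, and whether its difference departs from theirs was not tested.

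Tlr3 was read by 2 probe sets. The brighter, 1422782_s_at, gave 7.66, 7.07 and 7.71 on the double positive arrays and 6.84, 6.25 and 5.86 on the CD31+ arrays. The lowest double positive array lay above the highest CD31+ array, so the groups did not overlap. The means were 7.48 ± 0.357 in double positive and 6.32 ± 0.492 in CD31+ (SD, n = 3 each), a difference of 1.16 (SE 0.336, 95% interval 0.25 to 2.06) or a ratio of 2.23 (1.19 to 4.18), with an adjusted p of 0.376. Because the groups did not overlap, double positive was bound to be higher in 3 of 3 pairs of the same replicate number. The margins were 0.82, 0.81 and 1.85. A limma fit that took these pairs into account gave Tlr3 an adjusted p of 0.545 over all probe sets. The other probe set, 1422781_at, was repeated at 2.52 on 5 of the 6 arrays and read 2.72 on CD31+ replicate 3, so it followed neither group.

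Tlr2, which recognizes bacterial lipoproteins together with Tlr1 or Tlr6, read 5.45, 6.23 and 5.88 on the double positive arrays and 5.27, 5.37 and 5.20 on the CD31+ arrays at 1419132_at. Double positive replicate 1 lay only just above the highest CD31+ array. The difference was 0.57 (SE 0.221, 95% interval -0.02 to 1.17, adjusted p = 0.583). Neither partner of Tlr2 shared its sign. Tlr1 (1449049_at) read 2.39 on all 3 double positive arrays and 2.39, 2.49 and 2.39 on the CD31+ arrays, which is the floor. Tlr6 (1421352_at) read 2.58, 2.56 and 2.57 on the double positive arrays and 3.56, 3.11 and 2.57 on the CD31+ arrays. The difference was -0.51 (95% interval -1.25 to 0.23, adjusted p = 0.659). On 4 of the 6 arrays Tlr6 thus read between 2.56 and 2.58, and 2 CD31+ arrays stood above that.

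The promoter windows of Tlr2, Tlr3 and Myd88 are shown because they are the ones that held a searched motif among members with a mean of at least 5 over the arrays. They are RefSeq windows of GRCm38.p6, from 250 bases before to 50 after the start of the gene, printed 5′ to 3′ along the gene with matches in capitals. The windows are chr3:83841559-83841858 for Tlr2, chr8:45410331-45410630 for Tlr3 and chr9:119339969-119340268 for Myd88, all on the minus strand. In Tlr2 and Tlr3 the capitals mark the NF-kB consensus, and in Myd88 they mark 2 copies of GAAA with any 2 bases between them, the core of an interferon-stimulated response element.
Tlr2: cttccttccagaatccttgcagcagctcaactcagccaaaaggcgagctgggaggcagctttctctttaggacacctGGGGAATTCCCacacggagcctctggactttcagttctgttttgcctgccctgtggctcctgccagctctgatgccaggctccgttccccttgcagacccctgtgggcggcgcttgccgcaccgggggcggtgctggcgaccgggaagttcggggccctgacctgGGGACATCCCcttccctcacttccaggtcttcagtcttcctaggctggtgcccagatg
Tlr3: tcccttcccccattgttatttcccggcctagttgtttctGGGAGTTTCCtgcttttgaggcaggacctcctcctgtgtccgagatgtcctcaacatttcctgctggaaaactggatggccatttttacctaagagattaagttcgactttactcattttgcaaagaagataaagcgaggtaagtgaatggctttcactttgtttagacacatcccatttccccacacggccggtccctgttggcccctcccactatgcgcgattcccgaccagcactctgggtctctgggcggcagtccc
Myd88: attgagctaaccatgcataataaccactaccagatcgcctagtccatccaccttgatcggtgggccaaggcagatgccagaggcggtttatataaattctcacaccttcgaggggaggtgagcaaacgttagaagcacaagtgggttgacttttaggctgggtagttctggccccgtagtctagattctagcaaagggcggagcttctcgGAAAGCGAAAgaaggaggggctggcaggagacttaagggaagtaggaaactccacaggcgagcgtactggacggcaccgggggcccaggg

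Both motifs were searched on both strands. Tlr2 held the NF-kB consensus at 173, 172 and 8 bases before the start, the first pair being overlapping matches of one stretch, and Tlr3 held it at 211 bases before the start. This motif occurred in 8.46% of 32851 windows of the mouse table. The paired GAAA occurred in 3.44% of windows, and stood in Myd88 at 40 bases before the start and in one of the windows of Tlr6 as overlapping matches on the other strand. Of the 10 genes 7 had a window in the table. Tlr4, Cd14 and Ly96 had none there. A match is a run of letters, not a site in use.

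Myd88, the adaptor of most Toll-like receptors, read 6.11, 6.11 and 6.11 on the double positive arrays and 6.18, 6.10 and 6.11 on the CD31+ arrays at 1419272_at. The deposited value was the same to 4 decimals on 4 of the 6 arrays, the 3 double positive ones and CD31+ replicate 3. The span over all 6 was 0.08, and only 12 of the 5764 probe sets whose mean reached 5, or 0.208%, spanned 0.1 or less. A value repeated on at least 3 arrays was found at 2.03% of those 5764 probe sets, Myd88 among them. It was found at 72.8% of the 39273 dimmer ones, at the floor and also above it, as at 2.52 for the Tlr3 probe set 1422781_at. The difference of -0.02 (95% interval -0.08 to 0.04, adjusted p = 0.686) is therefore an interval on this reading, and whether the probe set followed Myd88 RNA on these arrays was not tested.

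Nod1, a cytosolic sensor of bacterial peptidoglycan, read 5.56, 5.10 and 5.55 on the double positive arrays and 5.59, 5.10 and 4.95 on the CD31+ arrays at 1454733_at. The groups overlapped almost fully, with a difference of 0.19 (SE 0.237, 95% interval -0.45 to 0.83, adjusted p = 0.728), which leaves room for a ratio between 0.734 and 1.77. Irak2, a kinase that acts below Myd88, read 2.80, 2.80 and 2.82 on the double positive arrays and 2.90, 2.82 and 2.91 on the CD31+ arrays at 1436507_at. That is a difference of -0.07 (adjusted p = 0.6) at readings close to the floor.

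**Figure D2:**
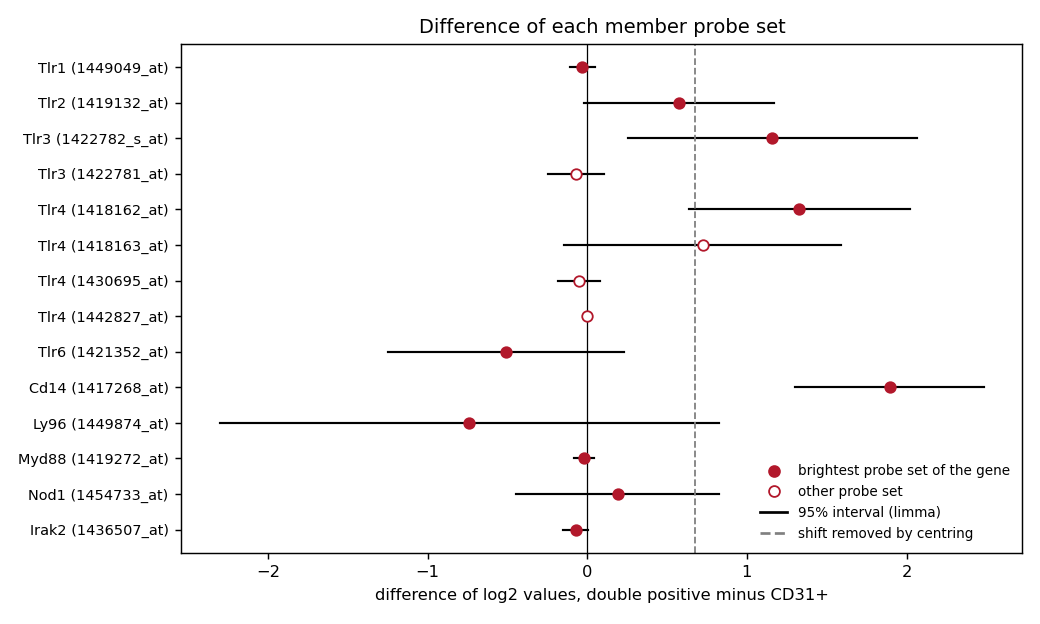
Difference of log2 values, double positive minus CD31+ (x axis), with the 95% interval from limma (line) for each of the 14 probe sets; filled points are the brightest probe set of a gene, open points its others, and the dashed line marks the 0.68 by which centring lowers every difference. The intervals of Tlr3, Tlr4 (1418162_at) and Cd14 lie above 0, and of these only the interval of Cd14 lies wholly above the dashed line.

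In counts, 0 of the 10 genes were called higher and 0 lower in limma over all probe sets at 5% FDR, against 1.06% of all 18194 genes called higher and 0.225% called lower. Before adjustment, at p under 0.05, Tlr3, Tlr4 and Cd14 were higher (3 genes) and 0 were lower, where 14.4% of all genes were higher and 2.43% lower. With the replicate number as a block these counts were 2 and 0, without Tlr3, where 14.9% of all genes were higher and 2.59% lower. All double positive arrays lay above all CD31+ arrays for 4 of the 10 and below for none, and the same held for 16.9% of all genes above and 3.42% below. With only the probe sets that reached 5 on at least 3 arrays, 4 of the 10 genes entered (Tlr2, Tlr3, Myd88 and Nod1) and 1 was called, Tlr3 (adjusted p = 0.0304), where 36.0% of 4213 genes were called higher and 4.34% lower. With the limit at 4, a value chosen after the data were seen, 7 entered and 3 were called higher, Tlr3 (adjusted p = 0.0369), Cd14 and Tlr4, where 30.1% of 5646 genes were called higher and 4.16% lower. Cd14 and Tlr4 entered through their double positive arrays alone and so were bound to differ, which makes their calls at that limit no support for a difference.

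Bright probe sets as a whole read higher in double positive. The median difference of the 5764 probe sets whose mean reached 5 was 0.75, and 13.8% to 14.7% of probe sets reached 5 on a double positive array, against 10.7% to 12.6% on a CD31+ array. Making the array medians of these equal lowers every difference by 0.68. After that the difference of Cd14 was 1.22, that of Tlr4 0.65 and that of Tlr3 0.48, whereas those of Tlr2 and Nod1 turned to -0.10 and -0.49 and that of Ly96 became -1.42. With centring and the limit at 4, where 11.3% of genes were called higher and 10.8% lower, Ly96 was called lower (adjusted p = 0.0343) and Tlr3 was not called (0.277). In sorted bulk RNA a change per cell and a change in the share of expressing cells cannot be told apart.

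The rest of the pathway was read through 61 further genes in 6 lists, each counted once at any probe set of its own. Over all probe sets 3 of the 61 were called higher and 0 lower, against 1.06% and 0.225% of all genes, and before adjustment p was under 0.05 for 20 that were higher and 0 that were lower, against 14.4% and 2.43% of all genes. With the limit at 5, 31 entered, of which 14 were called higher and 0 lower, where 36.0% of all genes that entered were called higher and 4.34% lower. Of the 14, Casp1 entered through its double positive arrays alone. With the replicate block 0 were called over all probe sets (0.0220% of all genes higher and 0% lower), and 17 were called higher and 1 lower with the limit, where 49.2% of genes were called higher and 5.25% lower. The median difference was 0.12 over the 61 genes, 0.08 over the 10 members and 0.0001 over all genes, many of which lay at the floor. Over genes whose mean reached 5 it was 0.77 for 29 pathway genes, 0.38 for 4 members and 0.73 for all genes.

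Among the other receptors and co-receptors, Tlr5, Tlr7, Tlr8, Tlr9, Tlr12 and Tlr13 lay at group means between 2.39 and 2.64, close to the floor in both groups. None of these 10 genes was called over all probe sets. Cd36, a fatty acid transporter and co-receptor of Tlr2, read 10.5, 9.92 and 9.26 on the double positive arrays and 8.14, 7.77 and 6.91 on the CD31+ arrays. The difference was 2.30 (adjusted p = 0.221, and 0.0046 with the limit at 5), and its other probe sets differed by 2.33 and 1.70. Lbp, which carries lipopolysaccharide to Cd14, read 5.24, 4.83 and 5.82 on the double positive arrays and 3.27, 3.45 and 3.21 on the CD31+ arrays. The difference was 1.98 (adjusted p = 0.1), and 1.87 at its other probe set. Lbp and Cd36, named as the 2 furthest apart in their list with a mean of at least 5, were above on every double positive array. So were Cd14 and Tlr4, and 16.9% of all genes. Of the genes that fold and move the receptors, Hsp90b1, the chaperone gp96, differed by 2.23 (adjusted p = 0.161, and 0.00298 with the limit at 5) and by 1.15 at its other probe set, and Unc93b1 and Cnpy3 were at the floor.

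Among 14 adaptors and kinases none was called over all probe sets. Tbk1, the kinase that acts below Tlr3 and Ticam1, read 10.1, 10.3 and 10.3 on the double positive arrays and 8.82, 8.52 and 8.21 on the CD31+ arrays. The difference was 1.73 (adjusted p = 0.059, and 0.00248 with the limit at 5), and 1.38 at its other probe set. Tab2, a partner of the kinase Map3k7, differed by 1.54 (adjusted p = 0.11, and 0.00576 with the limit), and its second probe set by -0.01. Ticam1 itself was at the floor, at 2.43 in both groups. Among 9 genes of NF-kB and the interferon regulatory factors none was called either, and the furthest apart at their brightest probe sets were Ikbkb, a kinase that releases NF-kB (1.496, adjusted p = 0.106, and 0.00617 with the limit), and Nfkbiz, an atypical inhibitor of NF-kB (0.80, adjusted p = 0.647). Nfkbia, the inhibitor that holds NF-kB in the cytoplasm, differed by -0.06 at its brightest probe set and by 1.26 at another (adjusted p = 0.12, and 0.0114 with the limit), the others of its probe sets lying between -0.10 and 1.02.

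Of 11 other innate sensors, 1 was called higher over all probe sets, where 1.06% of all genes were called higher. Casp1, the protease of inflammasomes, read 6.98, 6.42 and 6.75 on the double positive arrays and 4.67, 4.30 and 4.18 on the CD31+ arrays. The difference was 2.34 (SE 0.210, adjusted p = 0.0455) or a ratio of 5.05 (3.41 to 7.47). Sting1 (listed as Tmem173), the adaptor of cytosolic DNA sensing, differed by 1.38 (adjusted p = 0.204, and 0.0127 with the limit). Of 14 genes known to be induced by Toll-like receptor signalling, 2 were called higher, beside the same 1.06% of all genes.

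Vcam1, an adhesion molecule for lymphocytes and monocytes, read 9.90, 10.3 and 10.3 on the double positive arrays and 7.26, 7.16 and 7.47 on the CD31+ arrays. The difference was 2.89 (SE 0.165, adjusted p = 0.0217) or a ratio of 7.41 (5.45 to 10.08). Its 2 dimmer probe sets differed by 0.46 and 0.25 and were not called. Cxcl10, a chemokine for activated T cells, read 7.98, 8.38 and 8.12 on the double positive arrays and 6.40, 6.49 and 6.66 on the CD31+ arrays. The difference was 1.65 (SE 0.133, adjusted p = 0.0372). With the replicate block the adjusted p was 0.172 for Vcam1, 0.2 for Cxcl10 and 0.176 for Casp1 among all probe sets, and with the limit at 5 it was 1.59e-05 for Vcam1 and 9.39e-04 for Cxcl10, whereas Casp1 reached 5 in double positive alone. With any 1 array left out, 0 or 1 of the 61 genes was called over all probe sets, against 3 with all arrays. Vcam1, Cxcl10 and Casp1, named because they were called, did not overlap between the groups. That follows largely from the choice, and 16.9% of all genes likewise lay above on every double positive array. Ptgs2, the inducible cyclooxygenase, differed by 2.61 (adjusted p = 0.111, and 0.00112 with the limit), and by 0.18 at its dimmer probe set.

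Il6, a cytokine chosen here after its values were seen, had the other sign and overlapped. It read 5.94, 6.997 and 5.91 on the double positive arrays and 7.71, 7.79 and 6.81 on the CD31+ arrays. The difference was -1.15 (adjusted p = 0.605, and 0.0104 with the limit and the block). With the limit alone Il6 was not called. The genes of the list were thus not of one sign, and the cytokines Tnf and Il1b were at the floor in both groups, at means between 2.41 and 2.56.

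**Figure D3:**
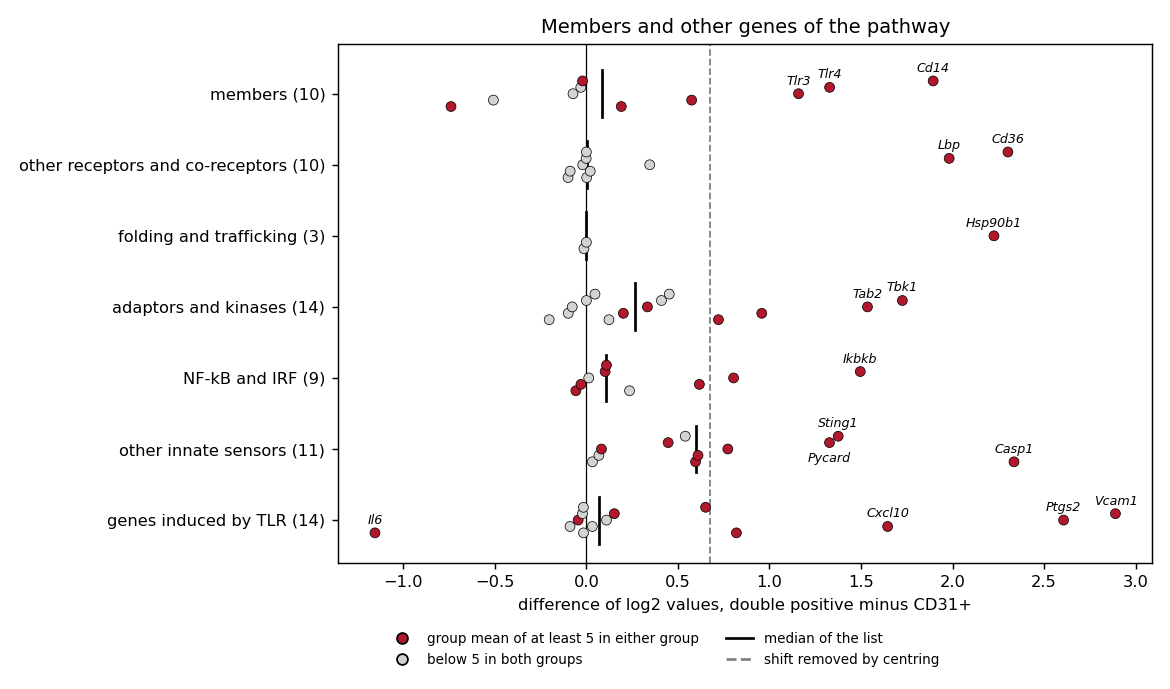
Difference of log2 values, double positive minus CD31+ (x axis), of each gene at its brightest probe set, for the 10 members (top) and the 61 other genes in 6 lists, with the number of genes in parentheses and a bar at each list's median. Red points reach a mean of 5 in either group and grey points do not; the grey points gather at 0 and the red points run from Il6 at -1.15 to Vcam1 at 2.89.

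Many of these genes are also well known from macrophages and other leukocytes, so the markers of those cells were read on the same arrays. None of the 16 macrophage and monocyte markers was called in either direction over all probe sets, and their summed log2 level ran from 53.15 to 54.60 in double positive and from 49.996 to 53.67 in CD31+. These sums include Marco, which alone differed by 4.67. The median difference over the 16 was -0.01. At their brightest probe sets Marco, Aif1 (0.06), Csf1r (0.06) and Lyz2 (0.01) had differences above 0. Tyrobp, Siglec1 and Cd163 read the same value on every array, and the others had differences below 0. Of those, Ptprc (-1.05), Mpeg1 (-0.57) and Laptm5 (-0.57) were the furthest. Of the 16, 14 had a mean under 4 in both groups, among them Lyz2, Itgam, Cd68, Tyrobp, Siglec1 and Cd163. Ptprc, which encodes CD45, read 2.53, 2.74 and 2.74 on the double positive arrays and 4.37, 2.77 and 4.03 on the CD31+ arrays. The difference of Ptprc was -1.05 (adjusted p = 0.659), and its other probe set read 2.43 on every array.

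The exceptions were Laptm5 and Marco. At its brightest probe set Laptm5 read 10.21, 10.70 and 9.97 on the double positive arrays and 10.98, 10.83 and 10.79 on the CD31+ arrays. The difference was -0.57 there and -2.15 at a dimmer probe set. The remaining Laptm5 probe sets had group means between 2.495 and 2.88, close to the floor in both groups. Marco, a scavenger receptor, read 8.36, 6.16 and 8.12 on the double positive arrays and 2.88 on each CD31+ array, a difference of 4.67 (adjusted p = 0.1). The dendritic cell markers (summed log2 level 15.37 to 15.41 in double positive, 15.15 to 15.4 in CD31+), the neutrophil markers (11.98 on each double positive array, 12 to 13.03 in CD31+) and the B cell markers (12.88 to 12.99 in double positive, 12.88 to 13.25 in CD31+) were near the floor, and none was called in either direction. Markers of other cells did differ, where 1.06% of all genes were called higher over all probe sets and 0.225% lower. Of 8 fibroblastic reticular cell markers, whose summed log2 level ran from 28.70 to 32.63 in double positive and from 33.36 to 41.52 in CD31+, Thy1 was called higher over all probe sets (3.03, adjusted p = 0.0232) and none was called lower. Col1a2 (-3.11, adjusted p = 0.174), Col3a1 (-3.15, 0.226) and Pdgfrb (-2.92, 0.542) did not pass over all probe sets, and entered the limit at 5 mainly through their CD31+ arrays. Of 5 T cell markers, with a summed level from 17.62 to 19.27 in double positive and from 19.78 to 20.26 in CD31+, none was called over all probe sets, and the Cd3 genes were at the floor. Cd8a differed by -1.07 at its brightest probe set (adjusted p = 0.364, and 0.0345 with the limit) and by -0.73 at another (adjusted p = 0.103 with the limit). The remaining Cd8a probe sets had group means between 2.39 and 3.38 and differences between -0.08 and 0. The part of leukocytes, of fibroblastic cells and of cells that express Marco in the Cd14, Tlr4 and Tlr3 readings was not tested.

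**Figure D4:**
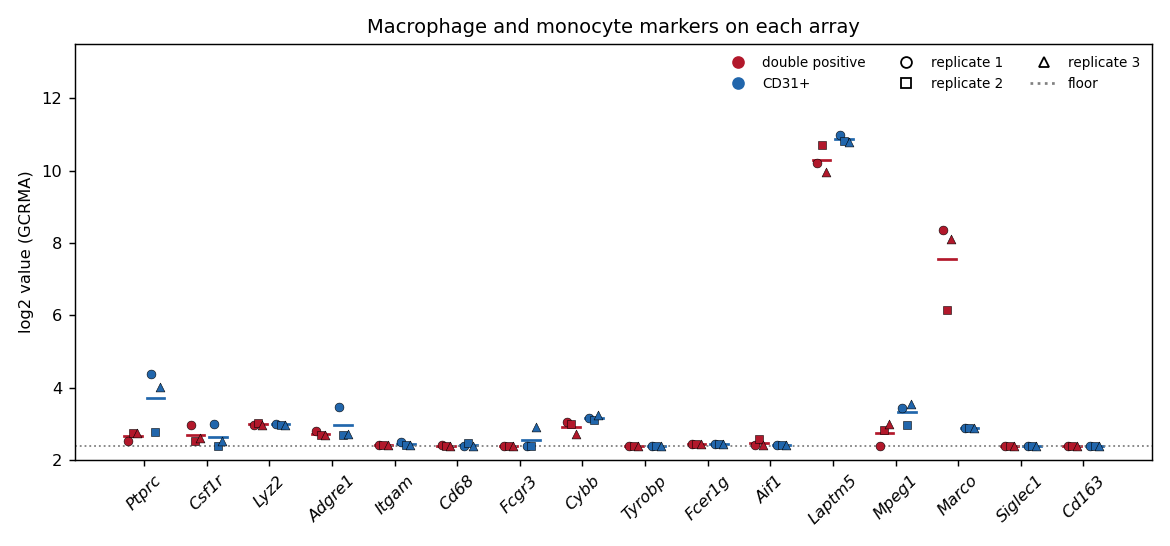
Log2 value (y axis) of the brightest probe set of each of the 16 macrophage and monocyte markers on each array, double positive left of CD31+, with a bar at each group mean and a dotted line at the floor of 2.39. All but Laptm5 and Marco have group means under 4, and Marco stands above 6 on the double positive arrays only.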

How the data were processed

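RNA of 6 samples (20 ng each) was amplified in 2 rounds and hybridized to Affymetrix mouse genome arrays. The authors normalized the arrays with GCRMA and deposited log2 values per probe set, so brightness differences between arrays that GCRMA does not remove stay in the values; versions of GCRMA and limma are not given in the sources used here. Per-probe intensities were not used. The table holds 45101 probe sets, 64 of them controls, and 34945 map to 1 gene. The lowest readings share a floor (2.39), and 37.43% of the probe sets stayed within 0.1 of it throughout. The number of arrays limits the precision.

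limma 3.58.1 in R 4.3.3 (lmFit, eBayes) was run on all 45037 non-control probe sets with Benjamini-Hochberg adjustment at 5% FDR, no filter and no block, as the study's methods describe no filter or block. Same-numbered arrays deviated together (correlations 0.341, 0.475 and 0.418 over the 5764 probe sets whose mean reached 5, against -0.405 to 0.0566 for other pairs), and the design text calls the samples paired, so the numbers were taken to pair the arrays. SEs, intervals and p-values come from the fit without the block unless the block is named, so they leave this pairing out. With the block the adjusted p over all probe sets was 0.225 for Cd14, 0.343 for Tlr4 (1418162_at) and 0.545 for Tlr3 (1422782_s_at) in limma. Correlations between arrays were 0.960 to 0.988 within and 0.924 to 0.957 between groups.

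Members were shown at every probe set and other genes at their brightest, with others where named. Of each pathway list, every called gene and the 2 furthest apart with a mean of at least 5 in either group were named. Members and lists were chosen with earlier results of these data known. Alternatives were the block, filters on dim probe sets at 5 and (added after the data were seen) at 4, each on at least 3 arrays, eBayes with trend and robust, centring, array weights, probe sets averaged or 1 per gene, 1% FDR, a minimum difference of 1, each array left out, and both arrays numbered 2 left out. Genes of the lists without a probe set of their own were not analysed here. The plots were made in Python 3.11.15 with matplotlib 3.10.9.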

Additional observations from a re-analysis of the deposited data

How the results depend on the processing

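The differences of Tlr2 and Nod1 turned to -0.10 and -0.49 with centred arrays, with or without a filter. Without CD31+ replicate 1, Myd88 (0.0033) and the Tlr4 probe set 1430695_at (0.0004) passed 0 by these margins, and the Tlr4 probe set 1442827_at, at 0, became -0.68 with centred arrays. No other member difference changed sign under the alternatives run. Genes called higher among the 10 members, the 61 other pathway genes and all genes numbered 0, 3 and 193, and genes called lower 0, 0 and 41. The replicate block gave 0 higher and 0 lower members, 0 higher other pathway genes, and 4 higher and 0 lower of all genes. The filter at 5 gave 1, 14 and 1518 higher and 183 lower of all genes, and with the block 1, 17 and 2074 higher and 0, 1 and 221 lower. The filter at 4 gave 3, 14 and 1700 higher and 235 lower of all genes, with the block 3, 16 and 2304 higher and 0, 1 and 274 lower, and with centring 1, 8 and 637 higher and 1, 1 and 608 lower. Centring alone gave 2, 14 and 1420 higher and 7, 44 and 15639 lower, since it also shifts readings at the floor, and centring with the filter at 5 gave 7 and 585 higher and 1 and 434 lower among other pathway genes and all genes. Trend and robust eBayes gave 1 and 127 higher among other pathway genes and all genes. Probe sets averaged per gene gave 1 member and 407 of all genes higher and 83 lower, and 1 probe set per gene gave 1 member and 402 higher and 76 lower; the member was Cd14 (adjusted p = 0.0324 and 0.0354). At 1% FDR 0 other pathway genes and 4 of all genes were higher and 2 lower. With each array left out the counts were 0 members either way, 0 to 1 other pathway genes higher, 36 to 103 of all genes higher and 5 to 61 lower, and without both arrays numbered 2 they were 0 other pathway genes, 26 higher and 13 lower. Beyond the construction of each alternative the causes were not tested.

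With all probe sets eBayes estimated 0.356 prior degrees of freedom beside 4 residual ones, and 4.92 with the filter at 5, and the FDR depends on which probe sets enter. Values near the floor bound no ratio, which applies to Tlr1, Tlr6, Irak2 and the CD31+ readings of Cd14 and Tlr4, for which no ratio is given.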
